A study of Mus musculus with 5 samples.

Results

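The 10 genes described here belong to the BCL2 family, which decides whether the outer membrane of the mitochondrion is opened during apoptosis. They were chosen by name, with Bcl2l11 first, and all 10 were found among the 22380 protein-coding genes of the GENCODE vM1 annotation. Their H3K9ac peaks were those with a centre within 10 kb of any transcript start of a member. This rule took 40 of the 34286 peaks of the DOP list and 43 of the 33355 peaks of the untreated list.

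In this family BCL2, BCL-XL (Bcl2l1) and MCL1 hold the effectors BAX and BAK in check, and the BH3-only proteins BIM (Bcl2l11), BID, BAD, PUMA (Bbc3) and NOXA (Pmaip1) bind these guardians or activate the effectors directly. BAX and BAK then form pores that release cytochrome c, which leads to caspase activation. In cultured neurons Bcl2l11 is known to be induced when trophic factors are withdrawn. H3K9ac, acetylation of histone H3 at lysine 9, is a mark of active promoters and is usually found just downstream of the transcription start.

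The cells were STHdh Q111 striatal progenitor cells of C57BL/6 origin, a mouse line homozygous for mutant huntingtin with an expanded CAG repeat (STHdhQ111/Q111). All groups were serum-starved for 24 h and carry the mutant allele. The Q111 DOP group (2 samples) received 4 mM 4-deoxypyridoxine hydrochloride (DOP), an inhibitor of sphingosine-1-phosphate lyase, and the Q111 SST group (2 samples, here called untreated) received vehicle. These cells are 1 conditionally immortalised line, so they represent neither a primary striatal neuron nor several donors. The deposited data are 1 list per condition, so a value is given once per list, no replicate error can be given, and every difference is one between lists. The IgG control (1 sample) and wild-type Q7 cells were not analysed here.

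Each peak is an interval of 200 bp around a called position, with a score from the authors' caller whose definition the lists do not give. The score is therefore mostly given as a percentile, the share of the peaks of the same list with a score at or below it. The depth of the samples is not known from the lists. Among markers of neural progenitors, 3 genes (Vim, Sox9 and Dlx1) had a peak in both lists and Dlx2 had 1 in the DOP list only, at percentile 42.0, whereas Nes, Sox2 and Gsx2 had 0 peaks in either list. The highest peak of Dlx1 was at percentile 76.3 in the DOP list and 59.1 in the untreated list. Of the 6 markers of mature striatal neurons only Ppp1r1b had a peak, and Gfap, Aqp4, Ptprc, Alb and Myod1, which mark other cell types, had 0. The leukocyte marker Cd68 had 4 peaks in each list, and 0 of them were nearest to its own start.

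The sequences under the peaks show what kind of DNA carried the mark at these genes. Those printed here are the highest-scoring DOP peaks of Bcl2l11 and Mcl1, and the peaks found in the untreated list only at Bcl2l11, Mcl1 and Bid. They come from the mm9 assembly on the strand of the gene, with each CpG dinucleotide in capitals, since CpG-rich DNA is typical of promoters with this mark. None overlaps an annotated UTR.
Bcl2l11, highest DOP peak, chr2:127952053-127952252, plus strand: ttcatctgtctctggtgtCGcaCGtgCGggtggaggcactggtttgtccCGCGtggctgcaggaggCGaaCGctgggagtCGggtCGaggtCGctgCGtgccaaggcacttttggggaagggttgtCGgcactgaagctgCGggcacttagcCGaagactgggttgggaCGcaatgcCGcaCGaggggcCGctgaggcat
Bcl2l11, untreated list only, chr2:127952565-127952764, plus strand: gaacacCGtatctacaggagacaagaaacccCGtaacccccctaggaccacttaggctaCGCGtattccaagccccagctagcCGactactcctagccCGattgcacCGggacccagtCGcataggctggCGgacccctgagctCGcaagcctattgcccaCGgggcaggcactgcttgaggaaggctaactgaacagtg
Mcl1, highest DOP peak, chr3:95462884-95463083, plus strand: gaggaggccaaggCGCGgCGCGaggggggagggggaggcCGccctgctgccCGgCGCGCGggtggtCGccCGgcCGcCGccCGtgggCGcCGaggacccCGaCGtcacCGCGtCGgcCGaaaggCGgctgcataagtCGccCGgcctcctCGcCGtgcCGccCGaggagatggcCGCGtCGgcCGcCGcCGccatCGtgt
Mcl1, untreated list only, chr3:95464016-95464215, plus strand: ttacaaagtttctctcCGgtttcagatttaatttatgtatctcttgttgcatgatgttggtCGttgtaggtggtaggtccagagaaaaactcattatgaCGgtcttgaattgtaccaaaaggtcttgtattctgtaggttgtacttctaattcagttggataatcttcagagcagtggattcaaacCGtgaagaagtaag
Bid, untreated list only, chr6:120867166-120867365, minus strand: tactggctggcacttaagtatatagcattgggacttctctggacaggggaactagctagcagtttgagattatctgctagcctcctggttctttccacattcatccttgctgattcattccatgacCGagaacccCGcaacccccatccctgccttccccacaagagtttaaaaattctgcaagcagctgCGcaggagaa

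The Bcl2l11 peak held 18 CpG dinucleotides and the Mcl1 peak 36, whereas the stretches found in the untreated list only held 11 at Bcl2l11, 4 at Mcl1 and 3 at Bid. The GC content fell in the same order within a gene, with 64.5% against 59.5% at Bcl2l11 and 80.5% against 37.5% at Mcl1. Over all member peaks the median GC content was 63.0% in each list, against 59.5% over all peaks of each list, and the range was 45.5% to 84.0% in the DOP list and 37.5% to 80.0% in the untreated list.

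All 10 genes had at least 1 peak in both lists, against 55.3% of all protein-coding genes (57.7% with a DOP peak and 56.9% with an untreated one). In both conditions the members thus carried the mark at or near a start, the anti-apoptotic and the pro-apoptotic genes alike. The DOP list held more peaks at 2 members, Bak1 and Bad, fewer at 4, Bcl2l11, Mcl1, Bid and Pmaip1, and equal numbers at Bcl2, Bcl2l1, Bax and Bbc3. Among the 13272 genes marked in at least 1 list, 32.5% had more, 28.5% had fewer and 39.0% had equal numbers, so the members lay on both sides as other genes did. These differences in number depended on how the region was divided. With centres within 1 kb chained into clusters, 0 of the 6 kept its direction: Bcl2l11 and Mcl1 had 2 clusters in the DOP list against 1 untreated, Bid, Pmaip1, Bak1 and Bad had equal numbers, and Bax had 3 against 4. The additional Mcl1 cluster was a single peak 9845 bp downstream of the start and nearest to another gene, Adamtsl4.

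**Figure D1:**
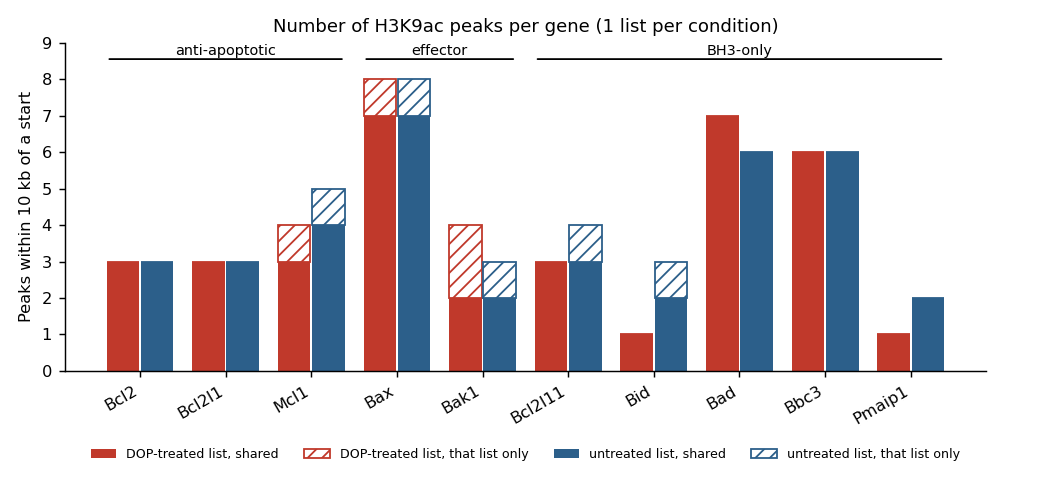
Number of H3K9ac peaks (vertical axis) within 10 kb of a start of each BCL2 family gene, in the DOP list (red) and the untreated list (blue). Solid bars are peaks that overlap a peak of the other list by at least 1 bp and hatched bars are peaks found in that list only, so that Bid falls from 3 to 1 and Bax stays at 8.

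Of the BH3-only genes, Bcl2l11 encodes BIM, which binds every anti-apoptotic member and can activate BAX and BAK. It lies on chromosome 2 from 127951774 to 127988283 (mm9, plus strand), and its 6 annotated starts fall into 1 group of 4 starts within a few bases and 2 starts of non-coding transcripts further downstream. The DOP list had 3 peaks there and the untreated list had 4, all of them in the gene and nearest to its own starts. The highest in each list lay in an intron, 366 bp downstream of a coding start in the DOP list (score 1062, percentile 89.0) and 377 bp downstream in the untreated list (score 923.4, percentile 85.3). These are the same site, since the centres are 11 bp apart.

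The shared Bcl2l11 peaks besides the highest followed the downstream starts. Near the start at 127953311 the lists had peaks 258 and 275 bp downstream, at percentile 65.3 in the DOP list and 66.4 in the untreated list. Near the start at 127953867 both lists placed a peak at the identical position, 68 bp downstream, at percentile 35.1 in the DOP list and 30.8 in the untreated list. The untreated list alone had a further peak between the highest peak and the one near 127953311, centred at 127952664 in an intron, with a score of 645.6 and percentile 71.5. This was the highest-ranked of all 9 member peaks found in 1 list only, and 512 bp separated it from the closest DOP peak. With this peak, the untreated list joined all Bcl2l11 peaks into 1 cluster of 1972 bp when centres within 1 kb were chained, whereas the DOP list formed clusters of 200 and 566 bp.

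Bid encodes a protein that caspase-8 cleaves to carry the signal of death receptors to the mitochondrion. The gene, on chromosome 6 from 120841948 to 120866871 (minus strand), carried 1 DOP peak and 3 untreated peaks, the largest difference in number among the members. Of all genes with at least 1 peak, 7.85% had at least 2 fewer in the DOP list. The DOP peak lay in an intron 291 bp downstream of a start, with a score of 912 and percentile 83.9. It overlapped both untreated intronic peaks, 227 bp (score 783.6, percentile 79.4) and 423 bp downstream (score 417.4, percentile 51.9). The remaining untreated peak, 394 bp upstream of the gene, had a score of 156.9 and percentile 19.0 and was found in that list only.

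Pmaip1, a target of p53 that encodes NOXA and neutralises MCL1, had the weakest highest peak of the 10 genes. The gene lies on chromosome 18 from 66618258 to 66625204 (plus strand). The only DOP peak was 198 bp downstream of the start, with a score of 522 and percentile 60.2, and the highest untreated peak was 283 bp downstream, with a score of 409.4 and percentile 51.0. The second untreated peak was centred on the start itself, with a score of 188.6 and percentile 23.5.

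Bbc3, also a p53 target, encodes PUMA. On chromosome 7 from 16894965 to 16903554 (plus strand) it had 6 peaks in each list, and every one had a partner in the other list within 44 bp. Its highest peaks did not lie at the annotated start at 16894965 but inside the gene. In the DOP list the peak in a coding exon 2547 bp downstream of that start scored 1038.2 (percentile 88.3), followed by an intronic peak 2858 bp downstream, with 854.8 (percentile 81.5). In the untreated list the same sites scored 876.2 (percentile 83.6) and 893.8 (percentile 84.3), so their order was exchanged. The peak at the start, 194 bp downstream of it in the DOP list, ranked at percentile 71.9 there and 60.1 in the untreated list. A weak peak 9608 bp upstream ranked at percentile 8.97 in the DOP list and 5.90 in the untreated list.

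Bad encodes a BH3-only protein that survival kinases inactivate by phosphorylation. It lies on chromosome 19 from 7016351 to 7026388 (plus strand) and had 7 DOP-treated and 6 untreated peaks, all of them shared. They formed 2 groups, one of 1778 bp (DOP-treated) or 1816 bp (untreated) around the upstream starts, and one of 1486 or 1434 bp around the start at 7025257 near the far end of the gene. The highest peak was in a 5' UTR in both lists, with a score of 1442.6 and percentile 96.0 in the DOP list and 1759 and percentile 98.1 in the untreated list. In the downstream group the highest peak lay in a coding exon, at percentile 95 in the DOP list and 91.9 in the untreated list, with centres 1 bp apart. The peak 603 bp upstream of Bad in the DOP list, at percentile 93.8, was nearest to Gpr137, a neighbouring gene.

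**Figure D2:**
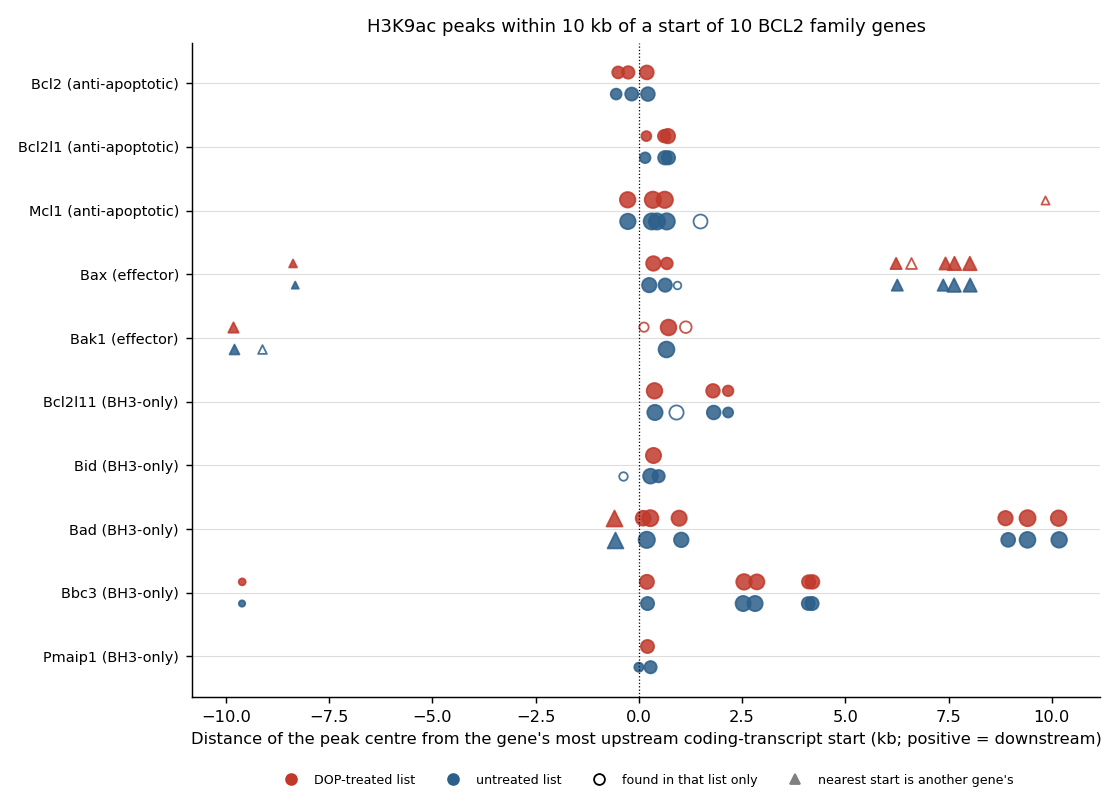
Distance of each peak centre from the most upstream start of a coding transcript of its gene, in kb (horizontal axis), for the 10 genes by role (rows), with the DOP list in red above the untreated list in blue. Larger symbols have a higher score percentile, open symbols were found in that list only and triangles are nearest to another gene's start, as are all peaks of Bax beyond 5 kb.

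Among the effectors, Bax and Bak1 encode the proteins that permeabilise the outer membrane. Bax lies on chromosome 7 from 52717065 to 52722268 (minus strand) and had 8 peaks in each list, but only 2 DOP-treated and 3 untreated peaks were nearest to its own starts. The others were nearest to Ftl1, the ferritin light chain gene, or to Dhdh. The highest peak of Bax lay in its 5' UTR, with a score of 750.2 and percentile 76.2 in the DOP list and 683.8 and percentile 74.0 in the untreated list. The next peak, 556 bp downstream of a start in the DOP list, ranked at percentile 45.1 there and 62.4 in the untreated list, a difference of -17.4 points (DOP-treated minus untreated) and the largest over the paired peaks of the family. The untreated list alone had a peak 800 bp downstream, at percentile 13.1.

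Bak1, on chromosome 17 from 27156755 to 27165954 (minus strand), carried 4 peaks in the DOP list and 3 in the untreated list. Its highest peak lay in an intron at nearly the same position in both lists, with a score of 1149.7 (percentile 91.1) after DOP and 1170 (percentile 92.0) without it. The DOP list flanked this site with peaks of its own, 705 bp downstream of a start (score 371.3, percentile 44.7) and 124 bp downstream of the most upstream start (score 209, percentile 24.7). These were 467 and 545 bp from the nearest untreated peak. The remaining Bak1 peaks, 1 in the DOP-treated and 2 in the untreated list, lay more than 9 kb upstream and were nearest to Ggnbp1.

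Of the anti-apoptotic genes, Mcl1 encodes a short-lived guardian that needs continued synthesis. It had the highest-ranking DOP peak of the family, on chromosome 3 in the gene from 95462643 to 95467099 (plus strand). In the DOP list the coding exon carried peaks 340 and 627 bp downstream of the start, with scores of 2083.6 (percentile 99.2) and 2006.4 (percentile 99). The untreated list divided the same exon among 3 peaks, at 311, 438 and 675 bp, with scores of 1457.5, 1575.3 and 1685.2 and percentiles of 96.0, 97.0 and 97.7. A peak 272 bp upstream in the DOP list and 267 bp upstream in the untreated list ranked at percentiles 87.9 and 87.2. The untreated list extended further into the gene with an intronic peak 1472 bp downstream, with a score of 606 and percentile 68.9, which was 845 bp from any DOP peak. The DOP list alone had a weak peak 9845 bp downstream, at percentile 16.4 and nearest to Adamtsl4.

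Bcl2, the founding member of the family, lies on chromosome 1 from 108434755 to 108610851 (minus strand) and had 3 peaks in each list, all shared. Its 5' UTR peak ranked at percentile 67.9 in the DOP list (score 617.7) and 66.4 in the untreated list (score 573.9). Upstream of the start, the nearer peak ranked lower in the DOP list, at percentile 53.4 against 59.0, and the farther peak higher, at 47.7 against 37.8. Bcl2l1, which encodes BCL-XL, lies on chromosome 2 from 152593052 to 152657464 (minus strand) and also had 3 shared peaks in each list, within 764 bp. Its neighbouring peaks at the start at 152656848 exchanged order. The one 86 bp downstream in the DOP list scored 730 (percentile 75.1) against 524.5 (percentile 62.5) untreated, whereas the one 3 bp upstream scored 448.5 (percentile 53.2) against 549.2 (percentile 64.4).

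By its highest peak, the order of the genes in the DOP list was Mcl1, Bad, Bak1, Bcl2l11, Bbc3, Bid, Bax, Bcl2l1, Bcl2 and Pmaip1, from percentile 99.2 to 60.2. In the untreated list it ran from Bad at percentile 98.1 to Pmaip1 at 51.0, with Bad ahead of Mcl1 and Bcl2 ahead of Bcl2l1 and otherwise the same order. With no spread over samples, neighbours in these orders cannot be called different. The median highest peak of all genes with a peak was at percentile 78.4 in the DOP list and 77.3 in the untreated list, and 6 members lay above it in each list. Peaks at or above percentile 90 made up 6 of the 40 DOP-treated and 7 of the 43 untreated member peaks, against 11.3% and 11.2% of all peaks near protein-coding starts, and they lay at Mcl1, Bad and Bak1.

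**Figure D3:**
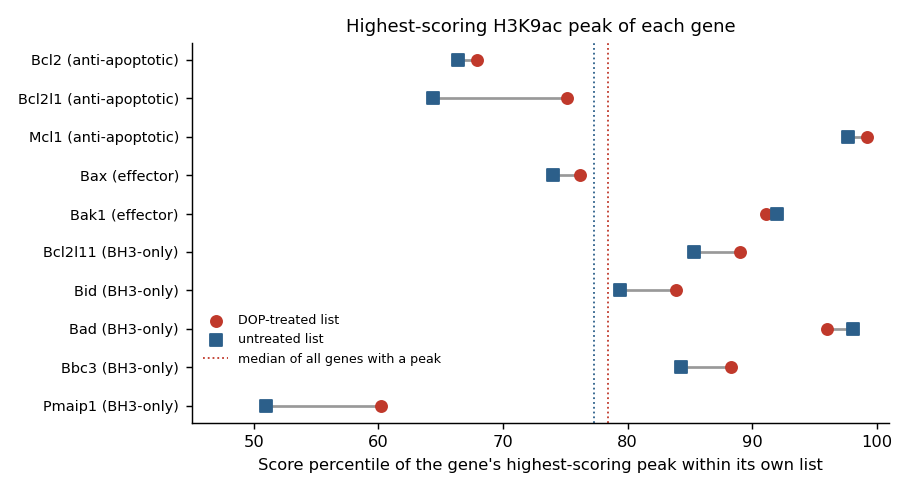
Score percentile of the highest-scoring peak of each gene within its own list (horizontal axis, which starts at 45), with the DOP list as red circles and the untreated list as blue squares. Dotted lines are the medians of all genes with a peak, and the widest gap is that of Bcl2l1, at 75.1 against 64.4.

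The highest peak ranked higher in the DOP list at 8 of the 10 genes, against 56.2% of all 12375 genes with a peak in both lists. The exceptions were Bad, with a difference of -2.07 points, and Bak1, with -0.835 points. A difference of at least 10 points was found for 1 member, Bcl2l1, with 10.7 points higher in the DOP list, and 0 members were lower by as much, against 13.6% and 7.68% of all genes. Pmaip1 came next with 9.19 points and Bid with 4.58. At Bcl2l1, Mcl1 and Bbc3 the highest peak was not the same site in both lists. Compared site by site, the neighbouring Bcl2l1 peaks differed by 12.7 and -11.2 points. The median difference of the highest peak over the members was 2.96 points against 0.633 over all genes, whose middle 90% ran from -13.3 to 16.9 points. The values of the 10 members all lay within that range. By the summed score of its peaks, a measure added after seeing the data, 0 members were 1.5-fold higher or lower in the DOP list, against 6.04% and 1.49% of all genes. Such a sum follows the number of peaks called: at Bid, the lowest ratio, it was 912 over 200 bp in the DOP list and 1357.9 over 596 bp untreated. The ratio at Bid, 0.672, was close to the 1.5-fold limit, and 1.56% of all genes had a ratio at or below it. The mean score at Bid was higher after DOP, but over 1 peak against 3, so it depends on the number called too.

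**Figure D4:**
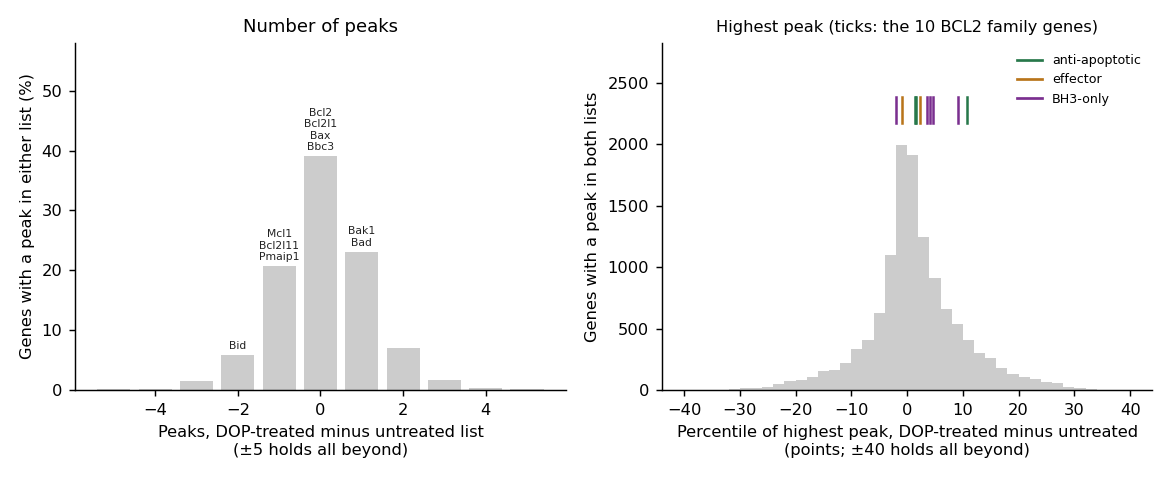
Left, difference in the number of peaks per gene (DOP-treated minus untreated list, horizontal axis) as a percentage of the genes marked in at least 1 list, with the members named above their bars. Right, difference of the percentile of the highest peak in points (horizontal axis) for all genes with a peak in both lists (grey, number of genes), with the members as coloured ticks between -2.07 and 10.7.

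Pro- and anti-apoptotic genes were set side by side because DOP was studied as a candidate protective treatment. At the 3 anti-apoptotic genes the DOP list had 10 peaks and the untreated list 11, and at the 7 pro-apoptotic genes 30 and 32. The highest peak was higher in the DOP list at 3 of 3 anti-apoptotic genes, with a median difference of 1.53 points, and at 5 of 7 pro-apoptotic genes, with a median of 3.65 points. The median percentile over all their peaks was 66.4 untreated and 60.7 after DOP at the anti-apoptotic genes, and 62.2 and 66.1 at the pro-apoptotic genes. Over the peaks nearest to the genes' own starts, a choice made after seeing the data, the direction turned at the anti-apoptotic genes, with 66.4 untreated (11 peaks) and 67.9 after DOP (9 peaks, without the weak Mcl1 peak nearest to Adamtsl4). At the pro-apoptotic genes it was 67.5 (24 peaks) and 75.5 (22 peaks). These medians cover unequal sets of peaks, so they too depend on how many peaks were called. Over all peaks near protein-coding starts the median was 55.1 untreated and 55.3 after DOP. The BH3-only genes had 18 DOP peaks, all of them shared, and 21 untreated peaks, of which 2 were found in that list only. Over all peaks near protein-coding starts, 16.2% of the DOP list and 13.3% of the untreated list were found in that list only. With 3 genes against 7 and 1 list per condition, these values describe the lists and carry no test.

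Peaks were also paired when each was the other's nearest centre and the intervals overlapped. This gave 35 pairs at the members, with centres a median of 27 bp apart, and 22834 pairs near all protein-coding starts, a median of 30 bp apart. The DOP peak ranked higher in 25 of the 35 pairs, against 58.3% of all pairs. It was at least 10 points higher in 2 pairs, at Bcl2l1 (12.7 points) and Bbc3 (11.9 points), and at least 10 points lower in 2, at Bax (-17.4 points) and Bcl2l1 (-11.2 points), against 17.4% and 11.1% of all pairs. The median difference was 3.07 points over the member pairs and 1.30 over all pairs. It was 1.38 points over the 9 anti-apoptotic pairs and 3.36 over the 26 pro-apoptotic pairs.

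**Figure D5:**
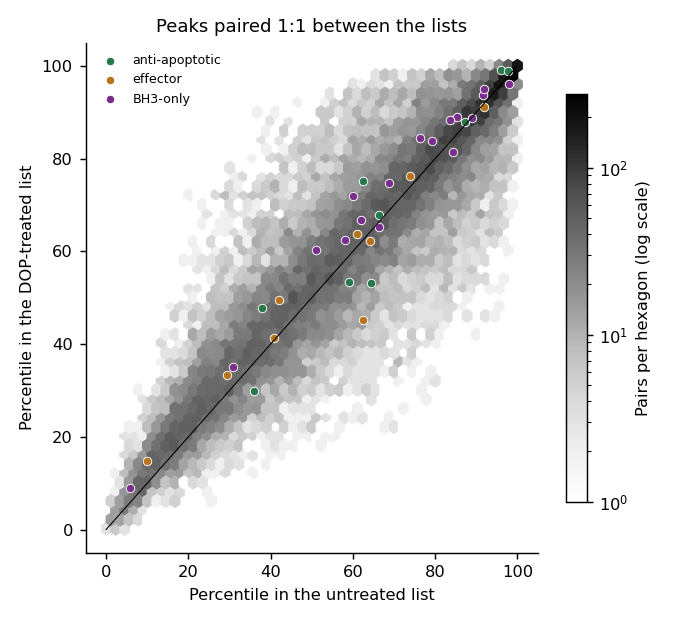
Score percentile in the untreated list (horizontal axis) and the DOP list (vertical axis) of peaks paired 1:1 between the lists. Grey hexagons count the 22834 pairs near protein-coding starts on a log colour scale, coloured points are the 35 member pairs by role and the line marks equal percentiles, so that the point farthest below it is the Bax pair at -17.4 points.

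Of the member peaks, 4 of the 40 in the DOP list did not overlap an untreated peak (10.0%, 95% Wilson interval 3.96% to 23.1%, for counting error only), against 16.2% of all DOP peaks near protein-coding starts. In the untreated list it was 5 of 43 (11.6%, 5.07% to 24.5%), against 13.3%. Both shares lie within counting error of the background. The median percentile of these peaks was 31.4 in the DOP-treated and 20.6 in the untreated list, against 69.9 and 64.2 for the shared member peaks. Only 1 of them, the weak DOP peak nearest to Adamtsl4, was more than 1 kb from a peak of the other list.

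Most member peaks lay close to a start, with 28 of the 40 DOP-treated and 31 of the 43 untreated peaks within 1 kb of a start of the gene itself. Downstream of the nearest own start lay 27 and 30 peaks, and 11 in each list lay between 150 and 400 bp downstream. By annotation of the centre in the member's own transcripts, 11 peaks of each list were intronic and 7 were in a 5' UTR, while 7 DOP-treated and 10 untreated peaks were in coding exons and 14 of each list were outside the gene. The same shares over all peaks near protein-coding starts were not counted, so these positions cannot be called particular to the members. At the edge of the window, peaks just inside lay 9845 bp (Mcl1) and 9834 bp (Bak1) from a start in the DOP list. The nearest just outside was a Bak1 peak 10240 bp upstream in the DOP list (percentile 54.5) and 10236 bp in the untreated list (percentile 49.9), nearest to Ggnbp1. Around Bcl2l11 no further peak was found within 200 kb of its starts in either list.

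The promoters of the members, taken from 250 bases before to 50 after the most upstream start of a coding transcript, had a median GC content of 65.7% against 55.3% over 22367 genes. The ratio of observed to expected CpG was a median of 0.82 against 0.54, and was lowest at Bak1 (0.12) and highest at Pmaip1 (1.13). The GC box GGGCGG, searched on both strands, was found in 9 of 10 member promoters and 43.9% of all, with most copies at Bcl2 (7) and none at Bcl2l1. The highest peaks of Bcl2l1 lay at a start further downstream, 152656848, which this promoter does not cover. The highest Bak1 peak of each list was likewise nearest to a start further downstream, 27165523, outside the promoter taken. The CCAAT box (CCAAT) was found at Bcl2l11 alone, against 37.9% of all promoters, and TATAAA at 0 members against 13.4%. The letters GTAAACA, a core of forkhead sites, were found at Bcl2l11 and Bak1 (3.08% of all promoters), and TGACGTCA, the cAMP response element, which reads the same on both strands, at Pmaip1 (2.35%). All 10 members had a peak in both lists, against 55.3% of all protein-coding genes. These contrasts therefore also set marked against unmarked promoters, and marked promoters alone were not compared.

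Other genes of the pathway were counted from fixed lists. Of 15 further BCL2 family genes, 7 had a peak in both lists, and Bcl2a1a, Bcl2a1b, Bcl2a1d, Bcl2l10, Bik, Hrk and Bcl2l15 had 0 in either. Bcl2l14 had 1 peak in the untreated list only, at percentile 2.26. The DOP list had more peaks at 2 of them and fewer at 6, against 32.5% and 28.5% of all genes marked in at least 1 list. The highest peak was at least 10 points higher in the DOP list at Bok, an effector-like member, with percentile 59.9 against 48.8, and at Bnip3l, a mitophagy receptor, with 59.8 against 39.8.

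Downstream of the mitochondrion, all 13 genes had peaks in both lists, with more in the DOP list at 5 and fewer at 4. Endog, a mitochondrial nuclease, was the only one with a difference of at least 10 points, at percentile 74.1 in the DOP-treated and 59.3 in the untreated list. Of the Endog peaks, 2 of 4 in the DOP list and 1 of 3 in the untreated list were nearest to its own start. Of 16 upstream regulators and partners, 15 had peaks in both lists, with more in the DOP list at 5 and fewer at 5, and Mapk10 had 0. Among all genes marked in at least 1 list, 32.5% had more peaks in the DOP list and 28.5% had fewer. The highest peak ranked at least 10 points higher in the DOP list at Dynll1, a dynein light chain that binds BIM, with percentile 93.8 against 75.8, and at Mapk9, which encodes a JNK kinase, with 90.2 against 77.6. Foxo3, a transcription factor that induces Bcl2l11 and was picked out after its values were seen, had 6 DOP-treated and 7 untreated peaks, with the highest at percentiles 96.2 and 95.4. No gene of these 3 lists had its highest peak lower by 10 points in the DOP list, against 7.68% of all genes. Of the 35 with a peak in both lists, 5 had it higher by as much, against 13.6% of all genes. Whether the highest peak of these genes was the same site in both lists was not compared.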

How the data were processed

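Chromatin of STHdh Q111 cells was profiled by ChIP-seq for H3K9ac. Per the paper's methods, the authors used Bowtie 2 for alignment (mm9) and GPS for peak calling, whereas the submitters' processing notes name BWA 0.7.10. The deposited lists (1 per condition, headed as GEM event calls) hold a position, an interval of 200 bp and a score for each peak. With 34286 DOP-treated and 33355 untreated peaks, they hold more than the paper reports for each condition. Why the totals differ is not given, so a peak described here need not be among those the paper used. The definition of the score, its threshold and the use of the IgG sample are not given in the sources used here. Nor is it given whether both samples of a condition were pooled for its list.

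No peak ran past a chromosome end of the NCBIM37 (mm9) assembly. Transcript starts came from protein-coding genes of GENCODE vM1, and a peak near several genes counted for each. Percentiles were ranks within a list. Differences of 10 points were the size used for a call, and sharing was an overlap of at least 1 bp. All 10 members are named. Values are given for other listed genes where a peak was in 1 list or the highest peak differed by 10 points. Listed genes with 0 peaks, markers with a peak and Foxo3 are named outside this rule, after their values were seen. Members and lists were chosen with earlier results of these data known. No test between conditions was possible, and shares carry Wilson intervals at 95%. Alternatives were other windows, starts, sharing rules, score limits and chaining. Functions were tested on simulated peaks. Python 3.11.15, numpy 2.4.6, pandas 2.3.3, pysam 0.24.0, samtools 1.23.1 and matplotlib 3.10.9 were used. Only some peak sequences are printed, and 1 marker gene is not reported here.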

Additional observations from a re-analysis of the deposited data

How the results depend on the processing

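No paired analysis was possible because each condition has 1 list, which carries no replicate, so replicates could not be left out in turn either. Of 248 values under an alternative, 204 stayed within their limit (1.5 times for counts, 10 points for percentiles) and 44 moved beyond it. Many of the 204 equalled the main value, as did every value with starts of protein-coding transcripts only. The difference of the highest peak changed at Bbc3 alone, from 4.03 to 9.92 points with a window of 1 kb. The 204 are therefore no measure of robustness. A change of sign was looked for only where the highest peak differed by at least 10 points. That was Bcl2l1 alone, and 0 changes were found. With peaks within 1 kb chained, the members had 19 DOP-treated and 18 untreated clusters, and only Bax had fewer in the DOP list (3 against 4). Bcl2l11 and Mcl1 then had more (2 against 1), so 0 of the 6 differences in number kept their direction. At Mcl1 the additional cluster was the weak peak nearest to Adamtsl4. With the top 50% of each list 1 member gained peaks after DOP, and by summed score, an alternative chosen after seeing the data, 6 were higher after DOP. Peaks found in the DOP list only numbered 2 with windows of 1 kb or 5 kb and with centres within 500 bp, 1 with centres within 1 kb, and 0 in the top 50% of the list. Those found in the untreated list only numbered 3 with a window of 1 kb, 8 with a reciprocal overlap of at least 50%, 0 with centres within 1 kb and 2 in the top 50%. Fewer peaks enter by construction with a narrower window or a score limit. The call at Bcl2l1 could not change under the window and start rules that were run. All of its peaks lay within 1 kb of its own coding starts, so each rule kept the same peaks. The depth behind the lists is not known, so no limit of detection can be given.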

Other observations

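The summed score of the peaks within 10 kb of a start was compared after the other values had been seen, since the caller can divide 1 acetylated region into different numbers of peaks. It assumes that scores add up, which the lists do not say. The ratio of DOP-treated to untreated sums was above 1 at 6 members and below 1 at 4, against 68.1% of all genes above 1, with a median of 1.06 over the members and 1.07 over all genes. It ranged from 0.672 at Bid to 1.28 at Bak1, so that 0 members reached 1.5-fold in either direction, against 6.04% of all genes higher and 1.49% lower by as much. Bid came close to that limit, and 193 of the 12375 genes with a peak in both lists (1.56%) had a ratio at or below its own. At Bid the sum was 912 over 200 bp in the DOP list and 1357.9 over 596 bp in the untreated list. The mean score was 912 over 1 peak against 453 over 3 peaks. Bcl2l11 had 1933 over 600 bp against 2385 over 800 bp, a ratio of 0.810 with mean scores of 644 and 596. Mcl1 had 5263 over 800 bp against 6304 over 927 bp, a ratio of 0.835 with mean scores of 1316 and 1261. A mean score, like a sum, depends on how many peaks were called.

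Jun and Xiap were singled out after their values were seen. Jun encodes the AP-1 subunit that JNK phosphorylates, which is known to contribute to Bcl2l11 induction in trophic-factor-deprived neurons. It had 4 DOP peaks and 1 untreated peak, and 2.37% of the 13272 genes marked in at least 1 list had at least 3 more in the DOP list. The untreated Jun peak, 857 bp upstream of the start at percentile 76.3, had a DOP-treated counterpart 3 bp away at percentile 62.9. The other DOP peaks were found in that list only, 725 bp and 260 bp downstream of the start in the 5' UTR, at percentiles 80.8 and 78.4, and 555 bp upstream, at percentile 65.0. Xiap, which encodes an inhibitor of caspases, had 1 DOP-treated and 3 untreated peaks, and 7.85% of the same genes had at least 2 fewer in the DOP list. The shared intronic peak was at percentile 51.8 after DOP and 52.5 without it, and the untreated peaks in the 5' UTR, at percentiles 27.1 and 28.4, were found in that list only. Whether these differences hold between samples was not tested, since each condition has 1 list.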
